A study of Rhipicephalus microplus with 12 samples.

Results

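Midgut RNA was compared with ovary RNA in the cattle tick *Rhipicephalus microplus*, in adult females of the Mozambique strain taken on day 20 of infestation of Holstein-Friesian cattle. By their titles, 8 of the 12 arrays of the series belong to this comparison: 4 carried midgut and 4 carried ovary, and the remaining 4 carried salivary gland. Every 2-colour array set a tissue, labelled with Cy5, against the same reference pool, labelled with Cy3, which was made of ticks from days 4, 5, 7, 13 and 15 and of female tissues from day 20. Each tissue had 2 biological replicates with 2 arrays each. Both arrays of each replicate were averaged (n = 2 per tissue), and the difference was taken as midgut minus ovary on the log2 scale over 13459 probes. The labels give neither the number of animals in a replicate nor whether replicates came from separate cattle, so a p-value here covers the spread between these RNA samples and nothing wider. The ovary arrays had a slide to themselves, while midgut and salivary gland shared one, and an effect of ovary and one of its slide cannot be told apart. As whole organs were sampled, fewer cells of a type and less RNA per cell cannot be told apart either. A log2 ratio was read as tissue over pool, the likely direction from the dyes, and a positive difference then means higher in midgut. No header states this direction: were it pool over tissue, every higher would read as lower, and every level above the pool as below it.

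The tick midgut is the organ of blood digestion: its epithelial cells take up proteins of the blood meal and break down haemoglobin inside the cell with acid peptidases, and they handle the haem and iron that this sets free. The ovary of a feeding female holds growing oocytes, which make part of their own stores and take up yolk protein, chiefly vitellogenin, from the haemolymph. The probes carry contig and sequence identifiers, of which 0 were in the RefSeq gene table and 0 matched the marker and gene lists drawn up for these tissues. The tissues could therefore not be checked against markers such as yolk proteins or gut peptidases, and no role is given to a probe unless its identifier carries a gene tag.

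The widest separations were found by the gap between the tissues, that is, between the lowest array of the higher tissue and the highest array of the lower one. Contig5935 had the widest gap in favour of midgut, with log2 ratios of 2.70, 2.73, 2.83 and 2.84 on the midgut arrays, against -4.12, -3.95, -4.35 and -4.62 on the ovary arrays. The lowest midgut array was 100.1-fold above the highest ovary array. In salivary gland the same probe gave -1.96, -1.89, -2.59 and -2.84, so that only midgut lay above the pool. Its midgut mean was 6.83-fold above the pool and its ovary mean was 5.22% of the pool, a difference of 7.03 (SE 0.30, limma adjusted p = 1.95e-05).

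Contig158 came next, with 1.21, 1.01, 0.96 and 1.12 on the midgut arrays, against -5.76, -5.68, -6.03 and -6.10 on the ovary arrays. Its gap was as wide (99.6-fold), but it lay lower in both tissues: midgut was 2.11-fold above the pool and ovary was 1.68% of it. Both midgut probes thus differed little in the size of the contrast (6.97 for Contig158, SE 0.26, limma adjusted p = 1.39e-05) and more in their level against the pool. For Contig158 the authors' deposited table used 1 of the 4 midgut values and all 4 ovary values. The log2 fold change in the authors' deposited table is 7.01.

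In the other direction Contig6410 had -4.68, -4.77, -4.88 and -4.89 on the midgut arrays, against 2.00, 2.02, 1.80 and 1.51 on the ovary arrays. Contig6991 had -4.87, -4.85, -4.81 and -4.77 in midgut, against 1.68, 1.77, 1.72 and 1.40 in ovary. The lowest ovary array stood 72.8-fold above the highest midgut array for the first and 71.9-fold for the second. Midgut means were 3.58% and 3.53% of the pool, while ovary means were 3.56-fold and 3.12-fold above it. The differences were -6.64 (SE 0.23, limma adjusted p = 1.14e-05) and -6.47 (SE 0.31, limma adjusted p = 2.69e-05). For both probes the authors' deposited table used 3 of the 4 ovary values, and for Contig6410 also 3 of the 4 salivary gland values. Its log2 fold changes are -6.65 for Contig6410 and -6.44 for Contig6991. Salivary gland lay between the tissues for both, with means of -1.38 ± 0.27 and -1.54 ± 0.67 (SD, n = 2). For Contig6991 the salivary gland replicates stood apart, at -2.01 and -2.02 in replicate 1 and -1.03 and -1.10 in replicate 2. All 4 named differences kept their sign and passed an adjusted p of 0.05 under each alternative in which they were tested. As these probes were chosen for the widest gaps on the same arrays, a kept sign and call were close to fixed in advance. The sizes did move: quantile normalization brought the midgut pair to 5.91 and 5.80, and scale normalization brought the ovary pair to -5.69 and -5.52.

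**Figure D1:**
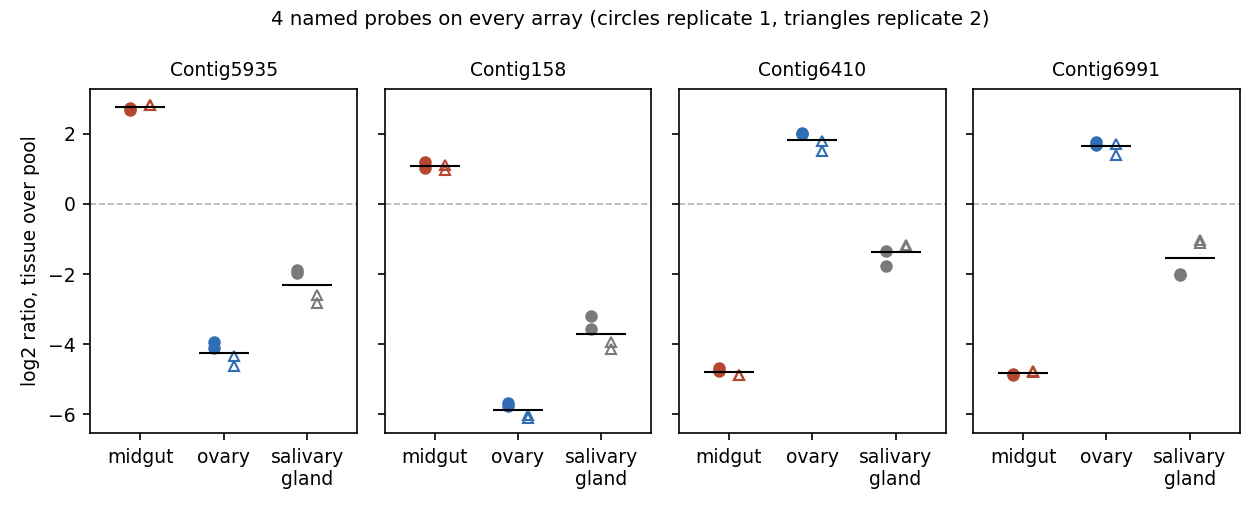
Log2 ratio of tissue over pool on every array for the 4 probes with the widest gaps, with midgut, ovary and salivary gland side by side, circles for replicate 1, triangles for replicate 2 and lines for the tissue means. Midgut and ovary arrays do not overlap for any of the 4 probes, and salivary gland lies below the pool (dashed line) for all of them.

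Across the table, 5467 of 13459 probes (40.6%) were called by limma at an adjusted p of 0.05, 3008 of them higher in midgut (22.3% of probes) and 2459 lower in midgut (18.3%). Among the 10695 probes with an identifier, 5165 (48.3%) were called, 2887 (27.0%) higher and 2278 (21.3%) lower in midgut. The middle of the distribution was narrow, from -0.47 at the lower quartile to 0.63 at the upper quartile of the difference, against a median SE of 0.23. Counted by array and without a variance estimate, all 4 midgut arrays lay above all 4 ovary arrays at 3910 probes (29.1%) and below them at 3058 (22.7%). Of the called probes, 2892 and 2341 were apart in this way, and 234 had overlapping arrays. The authors' deposited table, over the 10695 probes and with part of the array values left out, has 3969 higher and 2984 lower in midgut at an adjusted p under 0.05. A limma fit here to the same 10695 probes, with all array values, called 3249 higher and 2492 lower. The split by direction rested on the arrays used. On 3 arrays the medians lay near 0, and below those of the other arrays of their tissue, in every class of probes. These were the repeat arrays of midgut replicate 2 and ovary replicate 2 and the first array of ovary replicate 1. Without these 3 arrays, 2785 were higher and 4061 lower in midgut. The 4 ovary arrays split into 2 pairs, and no value here shows which pair departs from the other. Without the other 2 ovary arrays in place of the 3, an alternative chosen after seeing the data, 5047 were higher and 2219 lower. Without ovary replicate 2 the calls numbered 3463, and with quantile normalization 1806 were higher and 2076 lower in midgut, so no majority direction is given for all calls. The median difference over all probes was 0.04, and it was -0.16 without the 3 arrays, 0.45 without the other 2 ovary arrays and 0.18 with the first arrays alone.

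The balance between the tissues changed with the size of the difference, in a direction that would turn with that of the ratio. Among differences of 32-fold or more, 75 probes were higher in midgut (0.557% of all probes) and 30 lower (0.223%). Of those between 16-fold and 32-fold, 55 were higher and 40 lower. From 8-fold to 16-fold the counts were 110 and 121, and from 4-fold to 8-fold they turned to 193 higher and 370 lower in midgut. Below 4-fold midgut led again, with 1422 against 1129 between 2-fold and 4-fold and 1153 against 769 under 2-fold.

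The extremes of this pattern were compared across settings, not all of which could move them. In all 24 settings compared, more probes were higher than lower in midgut at 32-fold or more, and fewer at 4-fold to 8-fold. Settings that changed only the variance estimate, the salivary gland samples or the threshold left every difference as it was. Their outcome in these classes was close to fixed. Only settings that changed the midgut or ovary values, arrays or probes could move the order. The classes under 4-fold were not stable in this sense: without the 3 arrays, 1168 were higher and 2076 lower between 2-fold and 4-fold, and 1207 higher and 1362 lower under 2-fold. Without the other 2 ovary arrays the counts were 2817 and 1000 between 2-fold and 4-fold, and 1706 and 701 under 2-fold. The size of the top class depended on scaling, with 37 higher and 24 lower after quantile normalization and 49 higher and 10 lower after scale normalization. At 16-fold to 32-fold the order held in 22 of the 24 settings.

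**Figure D2:**
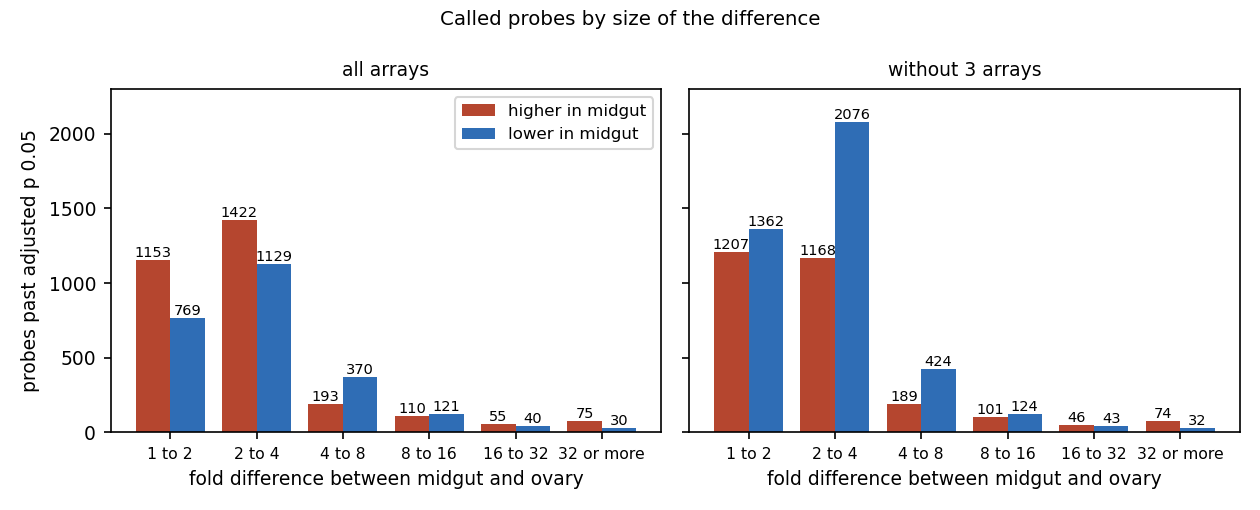
Number of probes past an adjusted p of 0.05 in each class of fold difference, higher in midgut (left bars) and lower in midgut (right bars), with all arrays (left panel) and without the 3 arrays with medians near 0 (right panel). With all arrays midgut leads at 32-fold or more (75 against 30) and trails at 4-fold to 8-fold (193 against 370). Both hold in the right panel, where the classes under 4-fold turn round.

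At least 8-fold differences and calls together were found at 240 probes higher in midgut (1.78% of probes) and 191 lower (1.42%). None of these 431 had overlapping midgut and ovary arrays, which their choice on the same arrays makes likely. Over all probes, midgut arrays lay wholly above ovary arrays at 29.1% and wholly below at 22.7%. The gap between the tissues had a median of 11.2-fold for the 240, with a smallest value of 1.58-fold, and 9.60-fold for the 191, with a smallest value of 3.51-fold. All 240 and all 191 were still called in the same direction without the 3 arrays, and likewise without the other 2 ovary arrays. With no overlap between the arrays, leaving some out could not turn a direction, and only the call was open. Leaving out each replicate in turn gave 225 to 258 probes at least 8-fold higher and 181 to 204 at least 8-fold lower in midgut.

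The levels against the pool describe where each tissue stood at these differences. As the probes were chosen by midgut minus ovary, the midgut and ovary levels are a description with no test. At the 240 probes higher in midgut, the median level was 2.12 in midgut (2.01 and 2.14 in its replicates), against -2.43 in ovary (-2.20 and -2.57). Midgut lay above the pool at 233 of them and ovary below it at 239. At the 191 probes lower in midgut, the median was -2.49 in midgut (-2.50 and -2.55), against 1.31 in ovary (1.29 and 1.36). In percent of the pool, the depleted tissue stood at 17.8% (midgut at the 191) and 18.6% (ovary at the 240), nearly alike. The enriched tissue reached 4.35-fold of the pool in midgut at the 240 and 2.48-fold in ovary at the 191.

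With the ratio read as tissue over pool, the larger part of most of these differences lay below the pool. Read the other way, the same counts and shares would stand above it. Levels over all probes were lopsided in the same way, so this was not particular to the probes chosen. Their 1st and 99th percentiles were -3.68 and 2.21 in midgut and -4.43 and 1.72 in ovary. The pool itself held female tissues from day 20, and whether this limited levels above it was not tested. At the 191 probes lower in midgut, midgut was farther below the pool than ovary was above it at 188, and a median of 67.1% of the log2 difference fell below the pool. At the 240 probes higher in midgut, ovary was the tissue farther from the pool at 154, and the median share was 56.3%. At 32-fold or more these counts were 30 of 30 lower in midgut and 71 of 75 higher. Ovary levels of the 191 were held in a narrow band, with quartiles of 1.16 and 1.45, while their midgut levels spread from -3.26 to -2.06 between quartiles. At the 240, the quartiles were 1.61 and 2.44 in midgut and -3.38 and -1.57 in ovary. In both directions, then, the tissue farther from the pool at the median varied more among probes, whichever way the ratio runs.

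**Figure D3:**
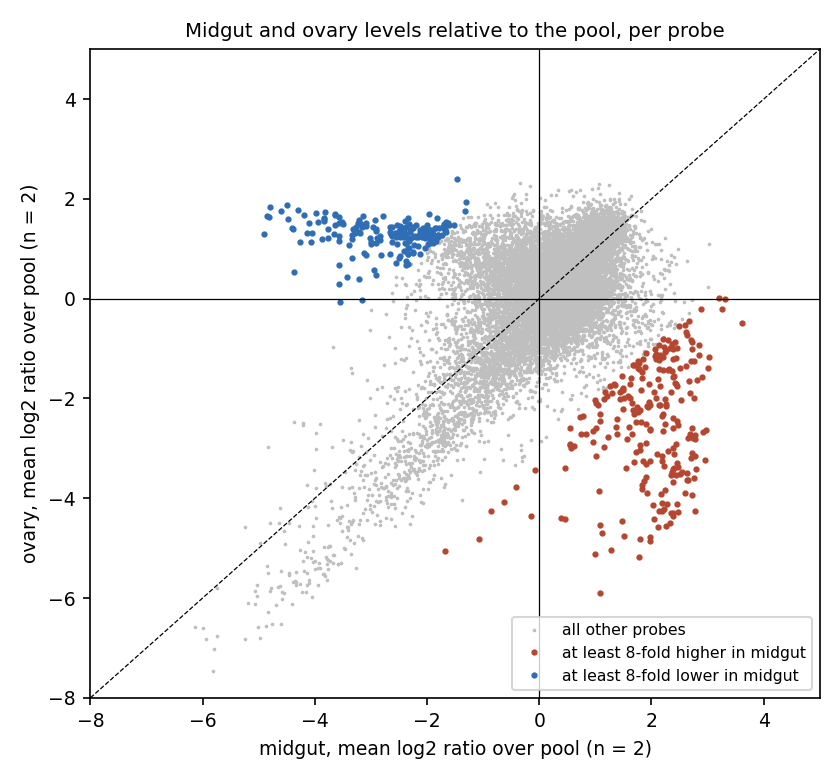
Mean log2 ratio over the pool in midgut (horizontal) and ovary (vertical), 1 point per probe, with probes at least 8-fold different in colour and the dashed line where both tissues are equal. The probes lower in midgut form a flat band at an ovary level near 1.31, and those higher in midgut a steeper cloud whose ovary levels reach -5.89.

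Salivary gland, which took no part in choosing these probes other than through the shared estimate of spread, showed where another tissue lay. At the 240 probes higher in midgut its median level was -1.11 (array medians from -1.19 to -0.96), and at the 191 lower in midgut it was -0.90 (array medians from -1.16 to -0.65). It was above the pool at 20 of the 240 and at 6 of the 191. On the way from the ovary level to the midgut level, salivary gland stood at a median of 30.2% for the 240 (quartiles 20.8% and 39.1%) and at 54.4% for the 191 (quartiles 48.7% and 62.1%). These positions depended on scaling. With quantile normalization the salivary gland median at the 240 was -1.59, beside 1.93 in midgut and -1.90 in ovary. At the 191 it was -1.33, beside -2.46 in midgut and 1.23 in ovary. There it stayed nearer to midgut than to ovary, as without this normalization (-0.90, beside -2.49 in midgut and 1.31 in ovary). Both salivary gland replicates lay between midgut and ovary at 210 of the 240 and 188 of the 191. The choice of probes with midgut and ovary far apart favours such a place for any other tissue. Over all probes the salivary gland level ran from -2.50 at the 1st percentile to 1.34 at the 99th. The exceptions at the 240 included 17 probes with salivary gland below both tissues and 5 with it above both.

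The spread between replicates was not the same in the 3 tissues. At the 191 probes lower in midgut, the median SD between replicates was 0.12 for midgut and 0.13 for ovary, but 0.37 for salivary gland. Of these, the 30 with a difference of 32-fold or more had medians that stood apart: salivary gland replicate 1 had -1.59 and replicate 2 had -0.85, while ovary had 1.58 and 1.55. At the 240 the SDs were 0.24 for midgut and salivary gland and 0.27 for ovary. The salivary gland position at the 191 thus rests on replicates that differ by more than the midgut and ovary replicates do.

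**Figure D4:**
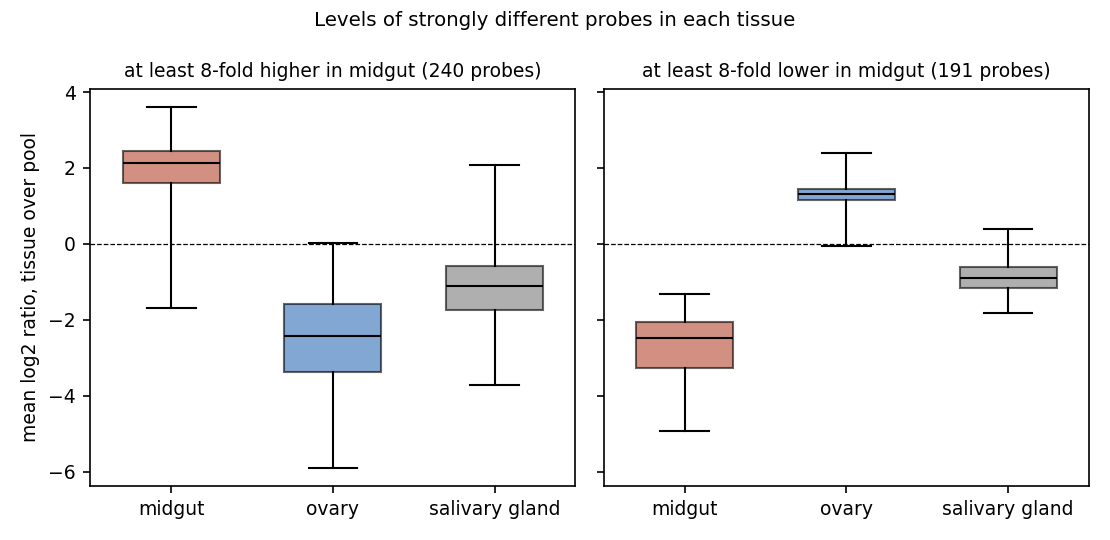
Mean log2 ratio over the pool in midgut, ovary and salivary gland at the 240 probes at least 8-fold higher in midgut (left panel) and the 191 lower by 8-fold or more (right panel), as boxes with medians and quartiles and whiskers to the lowest and highest probe. The salivary gland medians, -1.11 and -0.90, lie between the other tissues and below the pool (dashed line).

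Which probes the authors kept bore on the comparison. Of the 13459 lines of values, 7129 entered the authors' deposited comparisons with all 12 arrays, 3566 with part of them, and 2764 have no values there and could not be paired with an identifier. The reason a value was left out is not given in the sources used here. At the 7129 probes the median level was near the pool, 0.00 in midgut and -0.02 in ovary. At the 2764 lines without an identifier it was 0.95 for midgut and 1.13 for ovary, with 0.56 for salivary gland. Calls followed the same order: 51.7% of the 7129 were called, 41.5% of the 3566 and 10.9% of the 2764. Of the 431 probes at least 8-fold different, 4 had no identifier.

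The midgut and ovary arrays differed among themselves most at these lines. On the 2764 lines the other 3 midgut arrays had medians of 1.22 to 1.29 and the other 2 ovary arrays of 2.03 and 2.07, whereas the 3 arrays gave -0.01 in midgut and 0.03 and 0.07 in ovary. On the 3566 probes kept in part the same arrays were lower too, at -0.04 in midgut, where the others had 0.19 to 0.26, and at -0.03 and -0.01 in ovary, where the others had 0.34 and 0.41. On the 7129 probes the medians were close: -0.08 on that midgut array and 0.01 to 0.03 on the other midgut arrays, and -0.11 and -0.10 on those ovary arrays and 0.02 and 0.06 on the other ovary arrays. Across the 7129 probes, the arrays of ovary replicate 1 correlated at r = 0.988 and those of replicate 2 at 0.987, against 0.687 and 0.616 across the 2764 lines. Probes are not independent replicates, and these values describe the arrays only.

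Leaving out the 3 arrays moved the direction of calls in each class of probes, by different amounts. At the 2764 lines, leaving them out gave 78 higher and 1531 lower in midgut, beside 121 and 181 with all arrays. At the 3566 probes the majority turned as well, with 664 higher and 815 lower, beside 779 and 701. At the 7129 probes it gave 2043 higher and 1715 lower, beside 2108 and 1577. A fit to the 7129 probes alone called 4195, of which 57.8% were higher in midgut, and 4062 without the 3 arrays, of which 54.4% were higher. Over all probes the share was 55.0% with the 3 arrays and 40.7% without them.

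**Figure D5:**
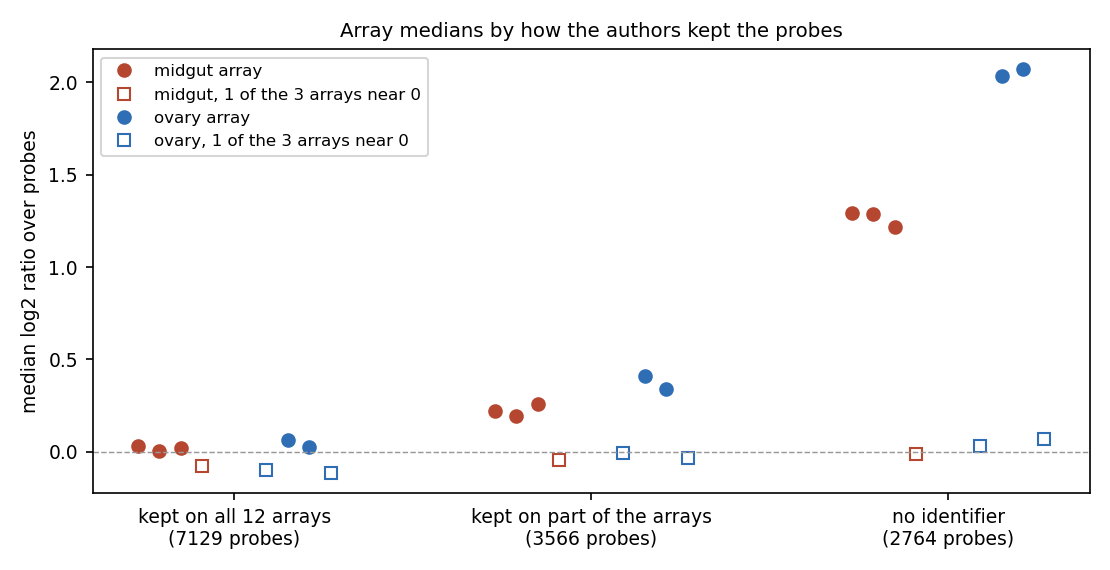
Median log2 ratio of each midgut and ovary array over 3 classes of probes: those whose values all entered the authors' comparisons, those with part of them, and lines with no values there. Open squares mark the 3 arrays with medians near 0, and below the other arrays of their tissue, in every class. They lie slightly below those at the 7129 probes and far below them at the 2764 lines (-0.01 against 1.22 to 1.29 in midgut).

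At the probes lower in midgut by 32-fold or more, values that the authors left out lay more often in ovary than in midgut. Of the 30 probes that were lower in midgut by 32-fold or more, 11 (36.7%) lacked at least 1 ovary value in the authors' comparison and 3 (10.0%) a midgut value. At the 73 identified probes at least 32-fold higher in midgut, 9 (12.3%) lacked a midgut value and 2 (2.74%) an ovary value. At 8-fold or more, midgut values were lacking more often than ovary values in both directions. Of the 237 identified probes higher in midgut, 24 (10.1%) lacked a midgut value and 17 (7.17%) an ovary value, and of the 190 lower in midgut, 32 (16.8%) lacked a midgut value and 17 (8.95%) an ovary value. Among all 10695 probes with an identifier these shares were 20.2% for midgut and 13.7% for ovary. Of the sets above, only the 30 went against this general order, by few probes. With only the kept values, 243 probes were at least 8-fold higher and 192 lower in midgut, close to the counts from all values. At 32-fold or more the counts were 74 and 30.

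Some identifiers differ only by a final A or B after the same contig number, and both probes had values for 58 contig numbers. Their midgut minus ovary differences had the same sign in 32 of 58 (55.2%). Both were called in 16, of which 8 pairs went the same way and 8 opposite ways. In 30 pairs 1 of the 2 was called, and in 12 neither. The differences of A and B were a median of 1.16 log2 units apart, and r across the 58 pairs was 0.04. At least 4-fold differences were seen in 10 pairs, and in 0 of them did both probes reach that size. The levels of A and B were no closer in either tissue (r = 0.07 in midgut and 0.04 in ovary). A shared contig number therefore did not go with a shared tissue difference here, and what the letters stand for is not given in the sources used here.

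Identifiers of 2 probes with values carried a gene tag. Contig2438_TBP_TATA, tagged for the TATA-binding protein that helps to place RNA polymerase at promoters, had -0.03, -0.10, -0.03 and -0.27 on the midgut arrays, against 0.45, 0.61, 0.90 and 0.48 on the ovary arrays. No midgut array reached the ovary arrays, and the difference of -0.72 passed (SE 0.18, limma adjusted p = 0.0195). It did not pass without midgut replicate 2, without either ovary replicate, with the first or the repeat arrays alone or with scale normalization, where the adjusted p in limma ran from 0.0506 to 0.113. Contig803_RiboL4, tagged for ribosomal protein L4 of the large ribosomal subunit, had 0.30, 0.17, 0.04 and 0.11 in midgut, against -0.16, -0.23, -0.14 and -0.29 in ovary. Its arrays did not overlap either, but the difference of 0.36 did not pass (SE 0.19, limma adjusted p = 0.18). Entering the 12 arrays with the replicate as a random block made it pass (adjusted p = 0.0231). The identifiers tagged His3A and EF1a have no values in the authors' deposited table. They could not be paired with a line of values, so no level is given for them.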

How the data were processed

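Log2 ratios of 13459 probes on 12 arrays were taken from the deposited value table, made by the authors with limma per the submitters' processing notes. The sources used here give neither its version nor the background correction and normalization. Midgut and ovary array medians ran from -0.05 to 0.39, so array medians had not been set equal. Spot intensities were not used here, and dim or saturated spots are therefore not distinguished. The comparison tables that the authors deposited hold 3 measures per the file headers: the log2 fold change, the fold (a ratio for midgut against ovary, a signed score for the others) and an adjusted p-value.

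Lines of values bear numbers only. Each was paired with an identifier where the authors' 2 log2 fold changes for midgut equalled, within 2e-08, differences of tissue means over all or part of the arrays. All 10695 identifiers with values found 1 line, with 0 ambiguous, and the array values used in that match were taken as those the authors kept. Decoys with exchanged fold changes found 0.

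The 2 arrays of a replicate were averaged, and limma 3.58.1 (lmFit and eBayes, under R 4.3.3) fitted 1 mean per tissue to these 6 values, which left 3 residual degrees of freedom, with Benjamini-Hochberg adjustment over all probes. The procedure was tested on simulated data with independent normal values. These had no shift of arrays or slides, so the test does not cover such shifts. An exact permutation test of 2 against 2 cannot go below p = 0.333. The number of arrays limits the precision. Probes were named by a rule: the 2 widest gaps between the arrays in each direction among called probes with an identifier, and probes with a gene tag. Members, lists and the alternative without 3 arrays were chosen with earlier results of these data known. The titles do not say whether same-numbered replicates of different tissues share animals, and the main fit did not pair them. Deviations of same-numbered midgut and ovary replicates correlated at -0.03 across probes. With 2 replicates per tissue, this value cannot settle whether they were paired. Alternatives covered repeat arrays, scaling, the samples, prior and probes in the fit, thresholds and left-out replicates. Figures used matplotlib 3.10.9.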

Additional observations from a re-analysis of the deposited data

Results flagged for a closer look

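Of 28 array measures, each over the 4 arrays of midgut or of ovary, 2 had an array farther from its group than Dixon's limit, and about 1 in 20 such groups would show this by chance. Over all probes the median log2 ratio was -0.0478 on the second array of midgut replicate 2, with 0.259 to 0.305 on the other midgut arrays. At the 2764 lines without an identifier the same array had a median of -0.0126, with 1.22 to 1.29 on the others. As these lines are part of all probes, the 2 flags are not separate. At the 7129 probes kept on all arrays that midgut array was not beyond the limit. The limit looks for 1 array apart from the rest and could not flag the ovary arrays, which split into 2 pairs. At the 2764 lines the ovary medians were 0.03 and 0.07 on 1 pair and 2.03 and 2.07 on the other.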

How the results depend on the processing

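The 4 named probes kept their sign and call under all alternatives in which they were tested, which their choice by the widest gaps made likely. Of 3008 probes called higher and 2459 called lower in midgut, 2691 and 2424 were called the same way without the 3 arrays, and 1 the other way. Counts moved by over 1.5 times as follows, and the cause was not tested unless the setting itself removes probes or samples. Repeat arrays only gave 3580 calls, 1742 of them higher in midgut. An adjusted p of 0.01 in limma left 3348 (1708 higher) and a 2-fold limit 3545 (1855 higher). Quantile normalization gave 1806 higher, and 37 at 32-fold or more. Scale normalization gave 115 at least 8-fold lower, and 49 higher and 10 lower at 32-fold or more. Without the 3 arrays 4061 were lower in midgut, and without the other 2 ovary arrays 5047 were higher. At 32-fold or more lower, 16 were left among probes kept on all arrays and 17 there without the 3 arrays. Leaving out 1 replicate, where the lone sample takes its spread from the other tissues, gave 3463 to 5346 calls, 1747 to 2966 of them higher in midgut, with the lowest values without ovary replicate 2. With the replicate block, which treats same-numbered replicates as paired although this is not known, 5342 were called. The share higher in midgut was 55.0%, and over the settings it ran between 40.7% without the 3 arrays and 69.5% without the other 2 ovary arrays. Of 32 recomputed median levels at the strongly different probes, 14 moved by less than the replicate spread and 18 by more, with 0 changes of sign. Settings that use the authors' kept probes or values, and the one without the other 2 ovary arrays, were chosen after seeing the data. Signal over background was not used here, so the limit it sets on low levels is unknown.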

Other observations

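The calls were also counted by the prefix of the identifiers. Of 10695 probes with an identifier, 27.0% were called higher and 21.3% lower in midgut. Of 15 probes with the prefix GO, 9 were called higher in midgut and 0 lower in limma, with 10 and 0 at an unadjusted p of 0.05 and a median difference of 1.22. With quantile normalization 2 were higher and 1 lower. Of 22 probes with the prefix U, 9 were higher and 0 lower, with 11 and 2 at an unadjusted p of 0.05, and 1 was lower without the 3 arrays and with centred arrays. Of 171 with the prefix EW, 45 were higher and 21 lower, and none was 8-fold different in either direction. Whether probes of a prefix share a transcript was not tested, and these counts are a description only.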
